A study of Mus musculus with 19 samples.

Results

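Glutamate and GABA uptake and conversion was described by the mRNA levels of 9 genes, *Slc1a2*, *Slc1a3*, *Glul*, *Glud1*, *Slc38a3*, *Slc6a11*, *Abat*, *Maob* and *Pcx*. They were listed by gene symbol, with earlier results of these data known, and each was found on 1 of the 60567 gene entries listed (the entry of *Glul* also holds *Mir8114*). Astrocytes take up glutamate and GABA that neurons release, convert glutamate into glutamine and return the glutamine to neurons. Glutamate that is not recycled is oxidized in mitochondria, and new glutamate carbon enters through pyruvate carboxylase, an enzyme that neurons largely lack. GABA is broken down by a transaminase, and astrocytes can also make GABA from putrescine with monoamine oxidase B.

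RNAseq was performed on cells isolated by FACS from the hippocampus of 9 month-old male mice with a C57bl6 background. GFP+ astrocytes came from WT-GFP mice (7 samples), APP-GFP mice (4 samples) and APP-SOCS3 mice (5 samples), and GFP- cells came from WT-GFP mice (3 samples). WT-GFP mice are wild-type littermates that received AAV-GFP alone. APP-GFP and APP-SOCS3 mice carry the APP/PS1dE9 transgenes of familial Alzheimer disease and received AAV-GFP alone or AAV-SOCS3 together with AAV-GFP, at one total viral load. Suppressor of cytokine signaling 3 (SOCS3) is an inhibitor of the JAK2-STAT3 pathway. Both transgenes of the vectors are driven by a promoter that is active in astrocytes, so GFP+ cells are infected astrocytes around the injected CA1 region, and GFP- cells still hold astrocytes that were not infected. Hippocampi of both hemispheres were sorted separately, so that samples of a group can share a mouse, and GFP+ and GFP- samples of WT-GFP mice can come from the same hippocampus. The labels do not say so for any sample, and *p* values measure the spread between samples. In these bulk samples, fewer cells of a type and less RNA per cell cannot be told apart.

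Each sample had between 19331876 and 32621917 reads on genes. Between 15575 and 26757 genes were detected in astrocyte samples and between 30807 and 31897 in GFP- cells. WT-GFP replicate 3 and APP-GFP replicate 2 had the fewest genes of the astrocyte samples, 15575 and 16471. Levels of *Socs3* were between 13296 and 37750 in APP-SOCS3 astrocytes, between 438 and 1639 in APP-GFP and WT-GFP astrocytes and between 10320 and 17689 in GFP- cells. The summed level of 10 astrocyte marker genes was between 483228 and 813911 in astrocyte samples and between 19076 and 58169 in GFP- cells, in which none of the 10 genes was at 0.

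The normalized level is the read count of a gene divided by 1 size factor per sample. A gene was called different where limma gave an unadjusted *p* of 0.05 or less and a change of 1.5-fold or more, which are the thresholds of the study, and Benjamini-Hochberg adjusted *p* values over all genes tested are given beside them. The 4 comparisons share samples, and values are therefore set side by side without a test across comparisons.

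The upstream sequence of *Slc1a3* is shown because it holds a match to the letters TTCNNNGAA, which STAT factors are known to bind and which read the same on both strands. Promoter entries of RefSeq (GRCm38.p6) were found for 6 of the 9 genes, and the 250 bases before the start were searched. The match is in capitals at position -96 from the start, in chr15:8710808-8711057 on the minus strand, outside all exons of GENCODE.

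*Slc1a3*: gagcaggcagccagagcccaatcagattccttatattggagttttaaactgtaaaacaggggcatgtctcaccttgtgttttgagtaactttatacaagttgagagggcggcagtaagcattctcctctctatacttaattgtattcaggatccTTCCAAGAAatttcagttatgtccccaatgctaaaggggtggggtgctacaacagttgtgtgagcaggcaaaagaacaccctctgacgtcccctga

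The letters TTCNNNGAA were found in 1 of the 6 genes and in 7.02% of 32851 promoter windows of this length. The letters TTGGC, the half-site of nuclear factor I, were found on either strand in windows of *Glul*, *Slc1a2* and *Pcx* and in 41.5% of all windows. The window of *Slc1a2* (102706188 to 102706437) and 1 of the 2 windows of *Pcx* (4594069 to 4594318) lie before internal starts. Both lie inside the span of the gene given for these data. Windows of *Slc1a2*, *Glul* and *Glud1* overlap exons of GENCODE. Bases just after the start were found in no GENCODE transcript of *Slc1a3* or *Glul*, nor in one of *Pcx* for its internal start. For comparison, the window of *Slc6a11* holds neither motif, and lies at chr6:114130991-114131240 on the plus strand.

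*Slc6a11*: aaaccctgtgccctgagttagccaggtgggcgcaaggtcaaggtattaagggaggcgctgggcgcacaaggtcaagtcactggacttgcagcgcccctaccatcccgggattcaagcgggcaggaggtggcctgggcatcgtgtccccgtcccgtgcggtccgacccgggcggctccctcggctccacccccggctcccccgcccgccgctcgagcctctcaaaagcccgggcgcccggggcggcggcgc

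These matches are a description of letters and do not show binding.

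The first comparison, which the study made to check the sort, set 7 samples of GFP+ astrocytes against 3 of GFP- cells, both from WT-GFP mice. Of the 9 genes, 8 were called higher in astrocytes and none lower, against 9.25% of 26709 genes called higher and 33.5% called lower. The same 8 genes had an adjusted *p* under 0.05 in limma (7.38% of all genes were higher by this rule), and for these 8 genes every astrocyte sample was above every GFP- sample (7.57% of all genes). The median log2 fold change was 1.66 over the 9 genes and -1.31 over all genes tested. *Slc1a2*, *Slc1a3* and *Glul* differed most, *Slc6a11* followed, and *Abat* did not pass the test.

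**Figure D1:**
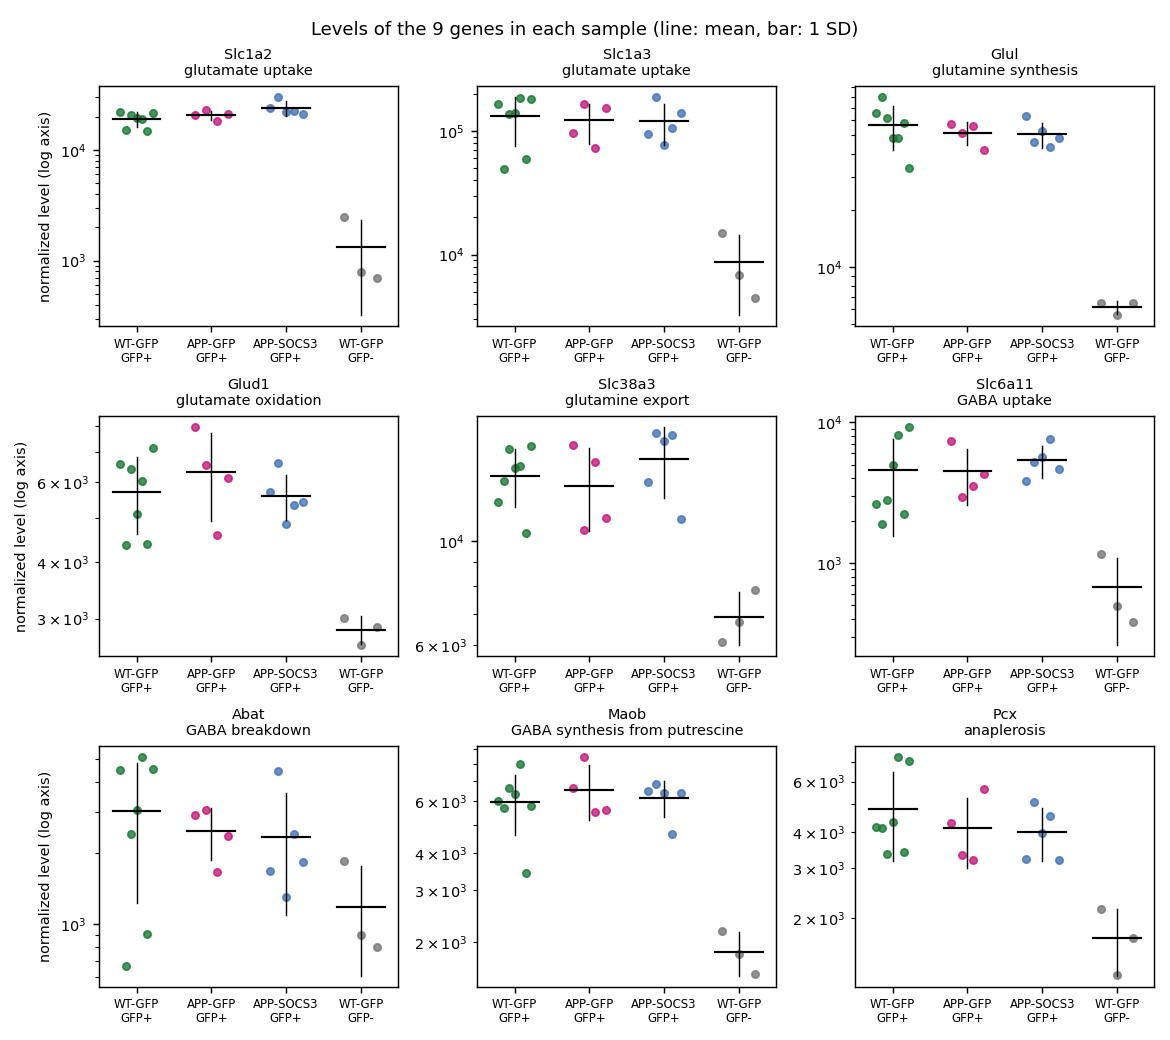
Normalized levels (log axis, which does not start at 0) of the 9 genes in each of the 19 samples, by group. Points are samples, horizontal lines are means and vertical bars are 1 SD. For every gene but *Abat*, the 16 astrocyte samples lie above the 3 GFP- samples, and the 3 astrocyte groups overlap.

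*Slc1a2* (GLT-1, chromosome 2 from 102658662 to 102790784 of mm10) encodes the main glutamate transporter of the adult forebrain. Its normalized levels were 14675, 19383 and 22011 at the lowest, median and highest of the 7 WT-GFP astrocyte samples, and 2475, 786 and 704 in GFP- cells. Levels were 20459, 22894, 18258 and 21294 in APP-GFP and 23977, 30253, 22094, 22498 and 21280 in APP-SOCS3 astrocytes. The 16 astrocyte samples stayed above GFP- cells, and APP-SOCS3 replicate 2 was the highest. On the scale of means, WT-GFP astrocytes were at 14.3 times the level of GFP- cells. The log2 fold change, taken on log2 levels, was 4.08 ± 0.336 (SE, n = 7 and 3, adjusted *p* = 9.13e-06). The exact permutation test gave *p* = 0.00833, the smallest that 120 splits of 10 samples allow.

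*Slc1a3* (GLAST, chromosome 15 from 8634124 to 8710807) encodes the glutamate transporter that predominates in cerebellar and developing astrocytes. Its mean level, not scaled for length, was the highest of the 9 genes in each group. Levels were 49211, 138247 and 184626 in WT-GFP astrocytes (lowest, median, highest) and 15058, 6830 and 4485 in GFP- cells. Levels were 96304, 163732, 73004 and 154344 in APP-GFP and 93560, 189097, 77546, 105654 and 139881 in APP-SOCS3 astrocytes. WT-GFP replicates 2 and 6 were the lowest of all astrocyte samples, at 49211 and 59259, and still above GFP- cells. The log2 fold change against GFP- cells was 3.92 ± 0.487 (SE, adjusted *p* = 0.000129, exact permutation *p* = 0.00833).

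*Glul* (chromosome 1 from 153899926 to 153909714) encodes glutamine synthetase, which makes glutamine from glutamate and ammonia. WT-GFP astrocytes had levels of 33641, 58127 and 79977 (lowest, median, highest), and GFP- cells had 6453, 5578 and 6450. APP-GFP samples were at 57352, 51155, 55996 and 41555, and APP-SOCS3 samples were at 63076, 45822, 52415, 43430 and 48045. The GFP- samples were close together and below all astrocyte samples. In WT-GFP mice the log2 fold change was 3.15 ± 0.224 (SE, adjusted *p* = 7.05e-06, exact permutation *p* = 0.00833), 9.17 times on the scale of means.

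*Slc38a3* (SNAT3, chromosome 9 from 107650639 to 107669003) encodes a transporter that releases glutamine from astrocytes. Its levels were 10406, 14320 and 15880 in WT-GFP astrocytes (lowest, median, highest) and 6086, 6708 and 7853 in GFP- cells. They were 15955, 10565, 14678 and 11180 in APP-GFP and 13323, 16985, 16286, 16791 and 11125 in APP-SOCS3 astrocytes. Astrocyte samples were higher without overlap, but by less than for the transporters of glutamate, with a log2 fold change of 0.99 ± 0.155 (SE, adjusted *p* = 0.00067, exact permutation *p* = 0.00833). When samples were scaled to equal upper quartiles, the log2 fold change was 0.53 and the gene was no longer called.

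*Glud1* (chromosome 14 from 34310725 to 34345033) encodes glutamate dehydrogenase, a mitochondrial enzyme that oxidizes glutamate to 2-oxoglutarate in many cell types. WT-GFP astrocytes had levels of 4357, 6030 and 7135 (lowest, median, highest), and GFP- cells had 3011, 2618 and 2877. Levels were 7952, 6561, 4587 and 6127 in APP-GFP and 5723, 6611, 4862, 5339 and 5425 in APP-SOCS3 astrocytes. GFP- samples were lower without overlap, at a log2 fold change of 0.99 ± 0.187 (SE, adjusted *p* = 0.00232, exact permutation *p* = 0.00833). With equal upper quartiles this was also 0.53, below the called range.

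*Pcx* (chromosome 19 from 4510472 to 4621752) encodes pyruvate carboxylase, which supplies oxaloacetate for net synthesis of glutamate. Levels were 3369, 4183 and 7311 in WT-GFP astrocytes (lowest, median, highest) and 2156, 1265 and 1707 in GFP- cells. They were 4320, 3335, 3203 and 5670 in APP-GFP and 3225, 5098, 3985, 4539 and 3187 in APP-SOCS3 astrocytes. WT-GFP replicates 5 and 7 stood above the other astrocyte samples, at 7311 and 7108. Against GFP- cells the log2 fold change was 1.47 ± 0.287 (SE, adjusted *p* = 0.00293, exact permutation *p* = 0.00833).

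*Slc6a11* (GAT-3, chromosome 6 from 114131237 to 114249947) encodes a GABA transporter of astrocytes. Its levels were 1895, 2818 and 9277 in WT-GFP astrocytes (lowest, median, highest) and 1150, 494 and 381 in GFP- cells. They were 7361, 2955, 3527 and 4271 in APP-GFP and 3848, 5191, 5685, 7647 and 4675 in APP-SOCS3 astrocytes. WT-GFP samples were widely spread, with replicates 5 and 7 at 8102 and 9277. The log2 fold change against GFP- cells was 2.66 ± 0.547 (SE, adjusted *p* = 0.00389, exact permutation *p* = 0.00833).

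*Abat* (chromosome 16 from 8513429 to 8621565) encodes GABA transaminase, which breaks down GABA in neurons and astrocytes. WT-GFP astrocytes had levels of 665, 3060 and 5100 (lowest, median, highest), and GFP- cells had 1850, 899.9 and 806. APP-GFP samples were at 2895, 3032, 1666 and 2368, and APP-SOCS3 samples were at 1690, 4466, 1307, 2415 and 1839. WT-GFP replicates 2 and 6, at 665 and 910, lay within or below the range of GFP- cells. The log2 fold change was 1.12 ± 0.648 (SE, 95% interval -0.30 to 2.55), which did not pass the test (limma *p* = 0.111, adjusted *p* = 0.206, exact permutation *p* = 0.167). This call depended on the test, since *Abat* was called at a log2 fold change of 1.64 with edgeR and of 1.39 with DESeq2 on whole reads, and of 1.43 without WT-GFP replicate 2.

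*Maob* (chromosome X from 16709282 to 16817366) encodes monoamine oxidase B, a mitochondrial enzyme abundant in astrocytes. Levels were 3438, 6008 and 7986 in WT-GFP astrocytes (lowest, median, highest) and 2180, 1827 and 1562 in GFP- cells. They were 6647, 8453, 5505 and 5620 in APP-GFP and 6484, 6852, 6409, 4648 and 6381 in APP-SOCS3 astrocytes. All astrocyte samples were above GFP- cells, at a log2 fold change of 1.66 ± 0.233 (SE, adjusted *p* = 0.000308, exact permutation *p* = 0.00833) in WT-GFP mice. Its paralog *Maoa*, monoamine oxidase A, went the other way, with levels of 1493 to 2506 in astrocytes and of 3475, 4187 and 5012 in GFP- cells and a log2 fold change of -1.23 ± 0.212 (SE, adjusted *p* = 0.00129).

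To compare levels between genes, normalized levels were divided by the length of all exons of a gene in GENCODE. The reads were counted on constitutive regions whose lengths are not given, so this order is approximate. In WT-GFP astrocytes, *Glul* was at 17003 ± 4475 per kb (SD, n = 7) and *Slc1a3* at 15320 ± 6518, and this pair overlapped. *Slc38a3* followed at 2603 ± 371 without overlap with *Slc1a3*. Then came *Maob* (2144 ± 489 per kb), *Slc1a2* (1444 ± 228), *Glud1* (1358 ± 263), *Pcx* (1017 ± 351), *Slc6a11* (902 ± 596) and *Abat* (390 ± 231), and each of these neighbours overlapped with the next. With the length of the longest transcript, *Slc1a3* was first at 29490 per kb and *Glul* next at 20237. In GFP- cells, *Glul* was first at 1854 ± 152 per kb (SD, n = 3) and *Slc1a2* was last at 101 ± 76.1. *Slc1a2* was the fifth of 9 genes in WT-GFP astrocytes by the length of all exons and the sixth by the longest transcript (1635 per kb, after *Glud1* at 1686), and it was the lowest in GFP- cells by both lengths.

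**Figure D2:**
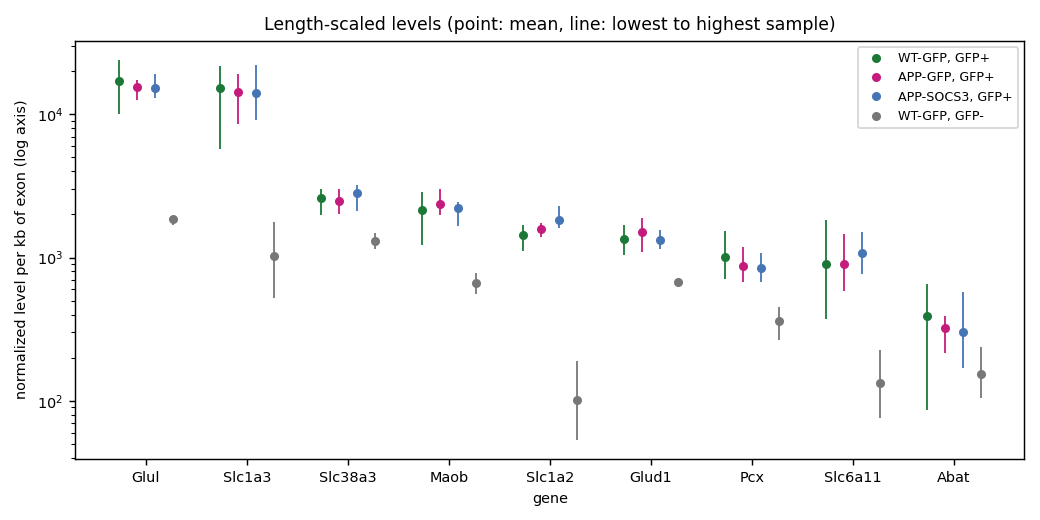
Normalized level per kb of exon (log axis) of the 9 genes in 4 groups, with genes in the order of WT-GFP astrocytes. Points are means and lines run from the lowest to the highest sample. *Glul* and *Slc1a3* stand above the other genes in the 3 astrocyte groups, and *Slc1a2* falls to the lowest mean in GFP- cells, 101 per kb.

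Of 34 other genes of glutamate and GABA handling, 32 could be tested between WT-GFP astrocytes and GFP- cells. In all, 9 were called higher in astrocytes, 14 were called lower and 9 were not called. With an adjusted *p* under 0.05 in limma these were 9 and 10, against 1971 and 6549 of all 26709 genes tested. The median log2 fold change of the 32 genes was -1.77, against -1.31 over all genes tested. Of all genes tested, 9.25% were called higher and 33.5% lower.

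The families of the transporters were split. Of the other *Slc1* transporters, *Slc1a4*, which carries alanine, serine and cysteine, was higher in astrocytes (mean levels 3601 and 518, log2 fold change 2.74 ± 0.41, SE, adjusted *p* = 0.000496). *Slc1a1*, the neuronal glutamate transporter EAAC1, was lower in astrocytes, at 0 to 30.4 in the 7 astrocyte samples and 330, 414 and 304 in GFP- cells (log2 fold change -5.55 ± 1.27, SE, adjusted *p* = 0.00732). *Slc1a5*, a transporter of neutral amino acids, was also lower, at 0 to 252 in astrocytes and at 934, 529 and 933 in GFP- cells, with a log2 fold change of -4.27 ± 1.92 (SE, limma *p* = 0.0482, adjusted *p* = 0.112, exact permutation *p* = 0.075). This call was lost with edgeR and DESeq2, and without WT-GFP replicate 1 or 2 or any 1 of the GFP- samples. Among GABA transporters, *Slc6a12* and *Slc6a13* were lower, at mean levels of 1.61 and 639 in astrocytes and 63.4 and 1842 in GFP- cells (log2 fold changes -5.24 and -1.80). *Slc6a12* was at 0 in 6 of the 7 astrocyte samples, and *Slc6a13* was no longer called without GFP- replicate 2 or with all 19 samples in one fit. Both genes of the cystine-glutamate exchanger were called higher in astrocytes, and *Slc7a11*, its transporting subunit, had a log2 fold change of 1.64 ± 0.573 (SE, adjusted *p* = 0.0489), which was not called without GFP- replicate 2 or 3, with equal upper quartiles (1.18) or with the replicate number as a block (1.18). *Slc3a2*, its other subunit, was at 0.59 and was not called without WT-GFP replicate 2, 3 or 5 or GFP- replicate 1 or 2, or with equal totals or upper quartiles. Of 4 other glutamine transporters, 2 were lower in astrocytes and 2 were not called, and *Slc38a5* differed most (-4.11 ± 1.63, adjusted *p* = 0.0767), a call lost without GFP- replicate 2 or 3. Without WT-GFP replicate 1, which was at 0, the estimate for *Slc38a5* was -2.97.

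Among enzymes, the glutaminase *Gls2*, which makes glutamate from glutamine, was at 3.04 to 144 in astrocytes and at 61.0, 77.1 and 59.2 in GFP- cells, and was not called (limma *p* = 0.199, exact permutation *p* = 0.225). The GABA-making decarboxylase *Gad1* was at 0 to 32.7 in astrocytes and at 155, 84.7 and 81.3 in GFP- cells (log2 fold change -4.50 ± 1.43, SE, adjusted *p* = 0.0338). *Gad2* had no read in the 7 WT-GFP astrocyte samples and levels of 0, 28.7 and 10.6 in GFP- cells. Both decarboxylases were called lower, and both calls were lost with DESeq2, that of *Gad1* also with edgeR and that of *Gad2* also with the replicate number as a block. The aminotransferase *Gpt*, which makes alanine from glutamate and pyruvate, was at 2120 to 4138 in astrocytes and at 224, 170.1 and 187 in GFP- cells (log2 fold change 4.09 ± 0.223, SE, adjusted *p* = 5.13e-06). Mitochondrial carriers differed in both directions. *Slc25a13*, a carrier of aspartate and glutamate, was lower in astrocytes (log2 fold change -6.24 ± 1.38, SE, adjusted *p* = 0.00589) and at 0 in 5 of 7 samples. *Slc25a18*, a glutamate carrier that was chosen after its values were seen, was higher (mean levels 13292 and 856, log2 fold change 4.06 ± 0.289, SE, adjusted *p* = 7.05e-06). The vesicular glutamate transporter *Slc17a6*, a marker of neurons, was lower in astrocytes (-5.56 ± 1.49, adjusted *p* = 0.0167). With edgeR and DESeq2 its log2 fold changes were -3.935 and -4.21 and it was not called, and without single samples they were between -6.35 (GFP- replicate 2) and -4.80 (GFP- replicate 3).

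**Figure D3:**
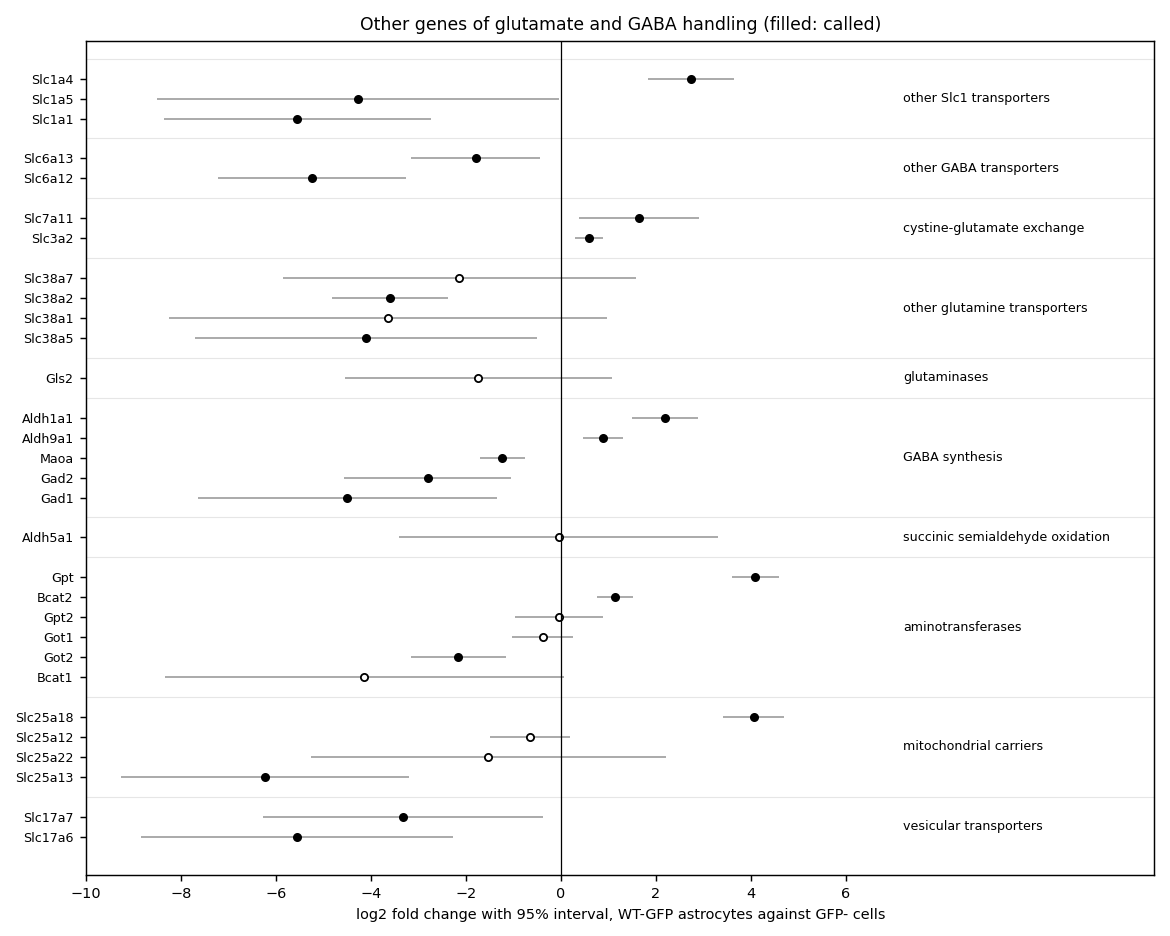
Log2 fold change of WT-GFP astrocytes (n = 7) against GFP- cells (n = 3) for 30 of the other genes of glutamate and GABA handling that were tested, grouped by role. Points are estimates, lines are 95% intervals and filled points are called. Of the filled points, 8 lie to the right (higher in astrocytes) and 13 to the left.

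Marker lists of other cell types moved with these differences, mostly downwards. All 10 microglial, 10 endothelial and 6 mural markers and 6 of 8 neuronal markers were called lower in astrocytes, as were all 4 markers of oligodendrocyte precursor cells. Of 7 oligodendrocyte markers, 2 were called higher and 2 lower, and they summed to between 4961 and 7090 in WT-GFP astrocytes and to between 2587 and 3334 in GFP- cells. Neuronal markers summed to between 160.1 and 1181 in WT-GFP astrocytes and to between 3575 and 7079 in GFP- cells, and none of the 8 was at 0 in all astrocyte samples. The part of each cell type in the levels of *Slc1a1*, *Gad1* and *Slc17a6* was not tested.

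The second comparison, between APP-GFP (n = 4) and WT-GFP astrocytes (n = 7), addressed the effect of the disease genotype. No member was called different, with limma, edgeR or DESeq2, and none had an unadjusted *p* under 0.05 in limma, against 2.23% of 22969 genes called. The 2 groups overlapped for all 9 genes, and how many of all genes did so was not counted. Log2 fold changes were between -0.20 for *Pcx* and 0.16 for *Slc6a11*, with a median of 0.01 (0.09 over all genes tested). The 95% intervals were narrowest for *Slc1a2* (-0.16 to 0.44) and *Slc38a3* (-0.42 to 0.26), and were within -0.53 to 0.33 for *Glul* and -0.27 to 0.55 for *Glud1*. These intervals stay within a fold change of 1.5 in both directions. They were wider for *Maob* (-0.30 to 0.60), *Pcx* (-0.75 to 0.35), *Slc1a3* (-0.85 to 0.80) and *Slc6a11* (-0.80 to 1.12), and for *Abat* (-1.14 to 1.16) the interval reached past a fold change of 2 in both directions. None of the 31 other pathway genes tested was called with limma, edgeR or DESeq2, and none had an unadjusted *p* under 0.05 in limma.

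The third comparison, with 5 APP-SOCS3 and 4 APP-GFP astrocyte samples, addressed the effect of SOCS3 in APP mice. No member was called with limma, edgeR or DESeq2, and none had an unadjusted *p* under 0.05 in limma, against 5.7% of 22844 genes called. All 9 genes overlapped between the groups. Of all genes, 1.09% were lower without overlap, and those higher without overlap were not counted. Log2 fold changes were between -0.19 for *Abat* and 0.31 for *Slc6a11*, with a median of -0.03 (0.08 over all genes tested). *Slc1a3*, the gene with the TTCNNNGAA match, had a log2 fold change of -0.0033 ± 0.296 (SE, exact permutation *p* = 0.984) and a 95% interval of -0.65 to 0.65. *Slc1a2* was at 0.21 (-0.08 to 0.49), *Glul* at -0.03 (-0.34 to 0.28), *Glud1* at -0.15 (-0.52 to 0.21), *Slc38a3* at 0.19 (-0.19 to 0.57), *Maob* at -0.08 (-0.45 to 0.28) and *Pcx* at -0.03 (-0.49 to 0.43). For these 6 genes a fold change of 1.5 lay outside the interval. Over all 9 genes, *Abat* and *Slc6a11* included, the intervals reached -0.90 and 0.90, past a fold change of 1.5 in both directions.

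When APP-SOCS3 astrocytes (n = 5) were set against WT-GFP astrocytes (n = 7), no member was called with limma, edgeR or DESeq2 either, against 5.21% of 22958 genes. An adjusted *p* under 0.05 in limma was found for only 7 of all genes tested. *Slc1a2* had the only unadjusted *p* under 0.05 in limma. Its mean was 24021 ± 3619 (SD, n = 5) in APP-SOCS3 and 18963 ± 2994 (n = 7) in WT-GFP astrocytes, 1.27 times higher, which is below the fold change required. The log2 fold change was 0.35 ± 0.134 (SE, 95% interval 0.06 to 0.63, limma *p* = 0.0217, adjusted *p* = 0.781, exact permutation *p* = 0.0139). The 2 groups overlapped, and without APP-SOCS3 replicate 2, the highest sample, the estimate was 0.26. Adjusted *p* was between 0.556 and 0.996 over the alternatives run. The other 8 genes had log2 fold changes between -0.23 (*Pcx*) and 0.47 (*Slc6a11*), with intervals that include 0 and reach as far as -1.27 and 1.29. The median of the 9 genes was -0.01 (0.19 over all genes tested).

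**Figure D4:**
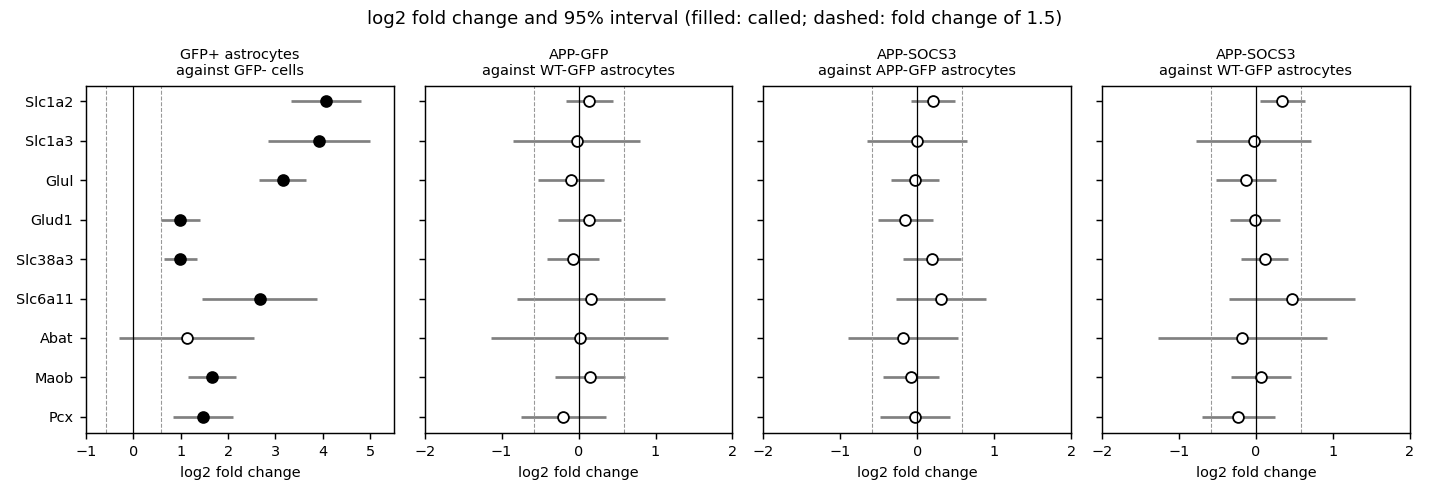
Log2 fold change with 95% interval of the 9 genes in the 4 comparisons. Filled points are called and dashed lines mark a fold change of 1.5. Of 9 points, 8 are filled against GFP- cells and none between astrocyte groups.

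Of 31 other pathway genes tested in the third comparison, 4 were called, all lower in APP-SOCS3 than in APP-GFP samples (3.37% of all genes were called lower). None had an adjusted *p* under 0.05 in limma, which only 1 of all 22844 genes tested had. *Slc6a13*, a GABA transporter known mainly from the leptomeninges, was at 98.3, 28.8, 256, 35.3 and 0 in APP-SOCS3 and at 124, 1409, 815 and 233 in APP-GFP astrocytes (log2 fold change -3.80 ± 1.39, SE, limma *p* = 0.0197, adjusted *p* = 0.680, exact permutation *p* = 0.0556). *Slc1a5* was at 38.6, 46.5, 44.0, 44.1 and 22.9 and at 68.8, 567, 263 and 67.1 (-2.06 ± 0.694, limma *p* = 0.0126, adjusted *p* = 0.646, exact permutation *p* = 0.00794). Levels of *Slc1a1* were at most 4.65 in APP-SOCS3 and 8.15, 31.3, 33.6 and 13.1 in APP-GFP astrocytes (-2.59 ± 0.959, limma *p* = 0.0206, adjusted *p* = 0.681, exact permutation *p* = 0.00794). *Slc38a5*, a glutamine transporter known from brain endothelium, was at 99.4, 141, 116, 11.8 and 54.5 and at 253, 579.7, 465.9 and 76.7 (-2.05 ± 0.800, limma *p* = 0.0262, adjusted *p* = 0.716, exact permutation *p* = 0.0635). Of the 4 genes, *Slc1a1* and *Slc1a5* did not overlap between the groups (1.09% of all genes tested were lower without overlap). Without APP-GFP replicate 3, the calls of *Slc6a13*, *Slc1a1* and *Slc38a5* were lost, and without APP-GFP replicate 2 those of *Slc1a1* and *Slc38a5*. The call of *Slc1a1* was also lost with edgeR and when replicate numbers were blocked, and those of *Slc1a5* and *Slc38a5* with all 19 samples in one fit. Sizes rested on single samples too. *Slc6a13* was at -2.56 without APP-SOCS3 replicate 5, which was at 0, and at -4.56 without APP-SOCS3 replicate 3 and -4.39 without APP-GFP replicate 1. *Slc1a5* was at -1.465 without APP-GFP replicate 2. *Slc38a5* was at -1.462 without APP-SOCS3 replicate 4 and at -2.65 without APP-GFP replicate 4.

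With WT-GFP astrocytes in place of APP-GFP, 1 of 28 pathway genes tested was called, *Slc6a13*, which was lower in APP-SOCS3 (2.02% of all genes were called lower). Its levels in WT-GFP astrocytes were 105, 636 and 1096 at the lowest, median and highest sample, and the log2 fold change was -4.10 ± 1.08 (SE, limma *p* = 0.00205, adjusted *p* = 0.332, exact permutation *p* = 0.00253). Without APP-SOCS3 replicate 5, at 0, it was -2.86, and without APP-SOCS3 replicate 3 it was -4.86. *Gpt* was 4159 to 5045 in APP-SOCS3 and 2120 to 4138 in WT-GFP astrocytes, without overlap (0.287% of all genes were higher without overlap), but its log2 fold change of 0.45 was below the threshold (limma *p* = 0.0121, adjusted *p* = 0.690, exact permutation *p* = 0.00505).

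Markers of other cells moved with these 4 genes. All 10 endothelial and all 10 microglial markers were called lower in APP-SOCS3 than in APP-GFP astrocytes, while none of the 10 astrocyte markers was called. Also called lower were 4 of 8 neuronal, 3 of 6 mural, 1 of 4 oligodendrocyte precursor and 1 of 6 tested oligodendrocyte markers. Endothelial markers summed to between 1389 and 7797 in APP-SOCS3, between 6656 and 37571 in APP-GFP and between 4424 and 43372 in WT-GFP astrocytes, and to between 146570 and 229327 in GFP- cells. They summed to 37571 and 20769 in APP-GFP replicates 2 and 3, and to 7819 and 6656 in replicates 1 and 4. Microglial markers summed to 67043 and 86051 in APP-GFP replicates 2 and 3, and to 16309 and 23955 in replicates 1 and 4. Mean levels of *Slc6a13*, *Slc1a5*, *Slc1a1* and *Slc38a5* were also highest in GFP- cells. Against WT-GFP astrocytes, 9 of 10 microglial, 8 of 10 endothelial and 3 of 6 mural markers were called lower in APP-SOCS3. So were 1 of 4 oligodendrocyte precursor and 1 of 5 tested oligodendrocyte markers, while no astrocyte or neuronal marker was called. The part of other cells in these calls, and in the difference of *Slc1a2* against WT-GFP astrocytes, was not tested.

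The 9 genes differed in their spread over the 16 astrocyte samples. The coefficient of variation was 51.1% for *Abat*, 46.9% for *Slc6a11*, 37.2% for *Slc1a3* and 29.8% for *Pcx*, and between 16.4% and 20.8% for *Slc38a3*, *Slc1a2*, *Glud1*, *Maob* and *Glul*. From the lowest to the highest sample, *Abat* varied 7.66 times and *Slc38a3* varied 1.63 times. WT-GFP replicate 2 was the lowest sample for 4 of the 9 genes and the highest for *Glul*, and WT-GFP replicate 6 was the lowest for 3 genes. WT-GFP replicate 6 also had the lowest sum of astrocyte markers of the 16 samples, 483228. APP-SOCS3 replicate 2, the highest sample for 3 genes, had the highest, 813911. WT-GFP replicate 2 had the highest sum of endothelial markers, 43372, with astrocyte markers at 607333. The part of other cells in this spread was not tested.

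Samples with much *Slc1a3* had much *Abat*. Over the 16 astrocyte samples, log2 levels of the 2 genes correlated with Pearson's r = 0.916 and Spearman's rho = 0.888 (permutation *p* = 1e-05, the smallest that 100000 permutations can give, and 2e-05). Adjusted over 54 relations tested, these were 0.00027 and 0.00108. Without the 2 samples farthest from the median of *Slc1a3*, r was 0.827, and it was 0.991 within the 7 WT-GFP and 0.755 within the 9 APP samples. *Abat* also followed *Glud1* (r = 0.781, rho = 0.741, permutation *p* = 0.00035 and 0.00166, adjusted 0.00473 and 0.0154), with r = 0.803 without the 2 farthest samples.

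*Glul* went against *Slc6a11* over the same samples (r = -0.748, rho = -0.727, permutation *p* = 0.00069 and 0.00199, adjusted 0.00745 and 0.0154). Without the 2 farthest samples r was -0.560, and it was -0.905 within WT-GFP and -0.228 within APP samples, so that the relation was carried mainly by WT-GFP samples. *Slc6a11* rose with the number of genes detected in a sample (r = 0.738, rho = 0.741, permutation *p* = 0.00138 and 0.00175, adjusted 0.00972 and 0.0154), also within WT-GFP (0.774) and APP samples (0.655). The part of library complexity in *Slc6a11* levels was not tested further.

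The share of all levels taken by *Apoe*, which encodes the main lipoprotein of astrocytes, was between 3.22% and 6.84% in these samples and was highest in WT-GFP replicates 2 and 6 (6.84% and 5.78%). It correlated negatively with *Abat* (r = -0.875, rho = -0.853, permutation *p* = 1e-05 and 4e-05, adjusted 0.00027 and 0.00108) and with *Slc1a3* (r = -0.848, rho = -0.827, permutation *p* = 6e-05 and 0.00015, adjusted 0.00108 and 0.0027). Without the 2 farthest samples r was -0.762 and -0.717. Within WT-GFP samples r was -0.963 and -0.976, and within APP samples -0.663 and -0.600. The *Apoe* share also went against *Glud1* (r = -0.730, rho = -0.715, adjusted permutation *p* = 0.00972 and 0.0167) and *Slc6a11* (r = -0.680, rho = -0.703, adjusted 0.022 and 0.018). For *Pcx*, r was -0.595 and rho -0.641 (adjusted 0.0512 and 0.0464). With *Glul* it rose (r = 0.62, rho = 0.597, adjusted 0.041 and 0.0692). For *Slc1a2*, *Slc38a3* and *Maob*, adjusted permutation *p* was above 0.05 by both measures. All levels of a sample share 1 size factor, and these relations say nothing of their cause.

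**Figure D5:**
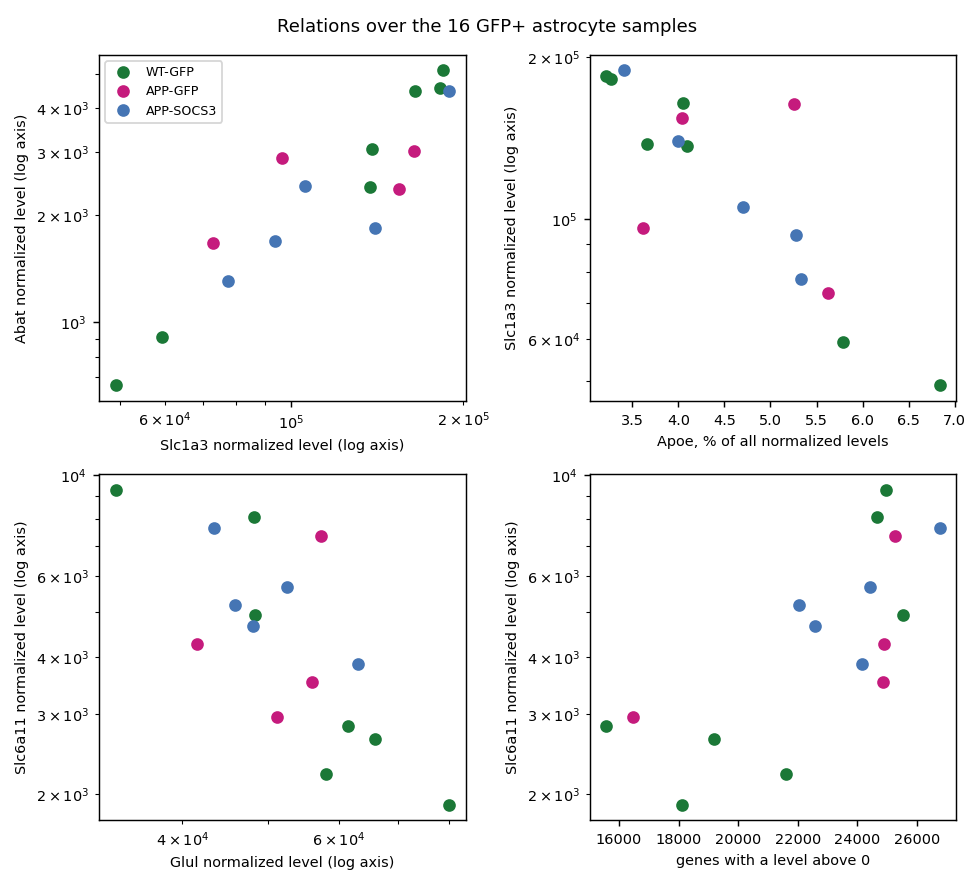
Levels in the 16 astrocyte samples (points, coloured by group), *Abat* against *Slc1a3*, *Slc1a3* against the share of *Apoe* in percent, *Slc6a11* against *Glul* and *Slc6a11* against the number of genes detected, with levels on log axes. *Abat* rises with *Slc1a3* (r = 0.916) and the 3 groups are intermixed.

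Among 12157 other genes whose mean level was 100 or more, those most like the mean of the 9 genes were sought. Likeness was Pearson's r of log2 levels with the mean of the standardized log2 levels of the 9 genes over the 16 astrocyte samples. Highest were *St6gal1* (r = 0.936), *Azin1* (0.919, on an entry that also holds *Mir6951*), *Psd2* (0.918), *Elovl5* (0.914) and *Atp1b2* (0.914). Without the 2 farthest samples their r was between 0.796 and 0.902. *St6gal1* encodes a sialyltransferase, *Elovl5* an enzyme that lengthens fatty acids and *Atp1b2* a subunit of the sodium pump. They were chosen for this likeness, which is therefore a description without a test. *Atp1b2* is also 1 of the 10 astrocyte markers. *Glul* went against other members over these samples (r = -0.610 with *Slc1a3* and -0.748 with *Slc6a11*). Likeness to the mean is thus not likeness to each of the 9 genes.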

How the data were processed

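RNAseq levels of 19 samples were used, grouped by the titles of the labels. The authors made full-length cDNA from about 1 ng of RNA by PCR, mapped reads to mm10 with STAR 2.4.0 (per the labels), counted them on constitutive gene regions of FAST DB and normalized with DESeq2. Each deposited value is a signal, the whole reads of a gene divided by 1 size factor of the sample. Whole reads were recovered from them (100% of values whole within a tolerance of 0.01 reads). Strand use in counting is not given in the sources used here.

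From these, log2(level + 1) was computed for genes whose mean level reached 10 in 1 of the groups compared, and tested with limma 3.58.1 (R 4.3.3, mean-variance trend, samples of both groups alone, no covariates). Fold changes are on this log2(level + 1) scale. Exact permutation tests were 2-sided on mean log2 levels and enumerated all splits. Correlations used 100000 permutations. Lengths and position checks came from GENCODE M21 (mm10), in which all 9 genes overlap the position of the authors. The filter of the study on intergenic background was not used here.

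The 9 genes, the 34 pathway genes and the marker lists were chosen with earlier results of these data known. Named were all members, their paralogs, *Gls2*, *Gad1* and *Gad2*, the most changed called gene of each role against GFP- cells, every called gene between astrocyte groups, and the 5 genes most like the mean of the members. Of these, 2 pathway genes are counted but not reported here. Alternatives were pseudocounts of 0.1 and 10, no minimum level or 100, equal totals, equal upper quartiles, TMM, all 19 samples in one fit, edgeR 4.0.16 and DESeq2 1.42.0 on whole reads, adjusted *p*, a fold change of 2, the replicate number as a block, and leaving out each sample. As a check of the code, the limma fit was run on simulated reads with 200 changed genes. These reads had the same variance setting for every gene, unlike the data, and no result here rests on them.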

Additional observations from a re-analysis of the deposited data

Results flagged for a closer look

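1 of 27 combinations of gene and group held a sample far from the others, and chance gives about 1 in 20. *Maob* in APP-SOCS3 replicate 4 was at 4648, the lowest of 5 samples, and the nearest of the others was at 6381. The gap was 0.786 of the range, against a critical value of 0.71. This sample had the most genes detected of the astrocyte samples, 26757.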

How the results depend on the processing

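Against GFP- cells, all 9 members kept their direction under the alternatives run, and the number called stayed between 6 and 9, from 8. It was 6 with equal upper quartiles and with a fold change of 2, and 9 with edgeR, DESeq2 and without WT-GFP replicate 2. Leaving out single samples gave 8 to 9 called members and 17 to 24 called pathway genes (from 23). Between astrocyte groups, 0 members were called under every alternative but 1, equal upper quartiles, which called *Slc1a2* between APP-SOCS3 and WT-GFP (1 member, log2 fold change 0.69) and 2 pathway genes. This scaling moved the median of all genes from -1.31 to -1.74 against GFP- cells, from 0.09 to 0.27 between APP-GFP and WT-GFP, from 0.08 to 0.24 between APP-SOCS3 and APP-GFP and from 0.19 to 0.52 between APP-SOCS3 and WT-GFP. Calls over all genes, higher and lower, went from 2471 and 8948 to 1351 and 11123, from 382 and 131 to 421 and 38, from 532 and 769 to 504 and 595, and from 733 and 464 to 1330 and 258.

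Called pathway genes between APP-GFP and WT-GFP numbered 1 with all 19 samples in one fit, 1 with the replicate block and 0 to 2 without single samples (2 without WT-GFP replicate 4, 1 without WT-GFP replicate 7), from 0. Between APP-SOCS3 and APP-GFP they numbered 2 with all 19 samples in one fit, 0 with adjusted *p* and 2 to 4 without single samples (2 without APP-GFP replicate 2 or 3), from 4. The 2 without APP-GFP replicate 3 were *Slc1a5* and a gene outside these 4. Between APP-SOCS3 and WT-GFP they numbered 0 with adjusted *p* and 1 to 2 without single samples (2 without WT-GFP replicate 1 or 7), from 1.

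Between astrocyte groups, most estimates of members were near 0 and several changed sign. Between APP-GFP and WT-GFP these were, with equal upper quartiles, *Slc1a3* (0.15), *Glul* (0.075) and *Slc38a3* (0.10), with TMM *Slc1a3* (0.0043), with edgeR *Abat* (-0.26), and with DESeq2 *Slc6a11* (-0.0089) and *Abat* (-0.28). Without single samples the ranges were -0.23 to 0.20 for *Slc1a3*, -0.22 to 0.00087 for *Glul*, -0.18 to 0.018 for *Slc38a3*, -0.10 to 0.37 for *Slc6a11* and -0.30 to 0.19 for *Abat*. Between APP-SOCS3 and APP-GFP these were *Slc1a3* with equal totals (0.0019), TMM (0.020), edgeR (0.025) and DESeq2 (0.0049), and with equal upper quartiles *Slc1a3* (0.17), *Glul* (0.15), *Glud1* (0.022), *Maob* (0.093) and *Pcx* (0.14). Without single samples the ranges were -0.22 to 0.16 for *Slc1a3*, -0.13 to 0.027 for *Glul*, -0.16 to 0.047 for *Maob* and -0.14 to 0.13 for *Pcx*. Between APP-SOCS3 and WT-GFP these were, with equal upper quartiles, *Slc1a3* (0.32), *Glul* (0.22), *Glud1* (0.33), *Abat* (0.17) and *Pcx* (0.12), with TMM *Slc1a3* (0.013) and *Glud1* (0.025), and with edgeR *Glud1* (0.0043). Without single samples the ranges were -0.24 to 0.12 for *Slc1a3*, -0.077 to 0.043 for *Glud1*, -0.48 to 0.0068 for *Abat* and -0.060 to 0.16 for *Maob*. The cause was not tested.

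With the replicate block, the calls of members were 8, 0, 0 and 0 in the 4 comparisons, as without it. Estimates that changed sign with the block were *Slc1a3* (0.053) and *Pcx* (0.014) between APP-GFP and WT-GFP, *Pcx* (0.046) between APP-SOCS3 and APP-GFP and *Maob* (-0.087) between APP-SOCS3 and WT-GFP. Same-numbered samples correlated between -0.076 and 0.154 in their deviations, and other pairs between -0.175 and 0.193. Medians of same-numbered and other pairs were 0.0745 and -0.0072 between APP-GFP and WT-GFP, and 0.0613 and -0.014 between APP-SOCS3 and APP-GFP. They were 0.0176 and -0.0035 against GFP- cells, and -0.011 and -0.0007 between APP-SOCS3 and WT-GFP. Same-numbered pairs were not all above 0.1 in any comparison, the bar set here, so the numbers were not taken to pair samples. This does not tell whether samples share a mouse. Of the pathway genes, *Slc7a11*, *Gad2* and *Slc17a7* against GFP- cells and *Slc1a1* between APP-SOCS3 and APP-GFP lost their calls with the block.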
